A study of Mus musculus with 12 samples.

Results

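The interaction between the Mll5 genotype and N-acetyl-L-cysteine (NAC) was measured in LSK cells, the fraction of mouse bone marrow that carries no lineage markers but has Sca1 and Kit on its surface and that contains the blood stem cells and multipotent progenitors. It is the genotype difference under NAC minus the genotype difference without it, that is (Mll5-/- NAC minus Mll5-/- mock) minus (wild-type NAC minus wild-type mock). All 12 of the 12 arrays in the series enter it, 3 in each of 4 groups. The groups are wild-type (Mll5+/+) mock, Mll5-/- mock, wild-type NAC and Mll5-/- NAC, all of strain C57BL/6. The NAC mice drank water with 1 g of NAC per liter, begun when their Mll5+/- parents were mated and kept up for life. The mock mice had no NAC. The deletion is constitutional and the NAC reached the embryo and the whole animal, so neither is limited to blood cells. No source used here gives ages or the number of mice behind an array, so the p-values cover the variation among these arrays, which may be technical in part. The values are log2 signals, 1 probe set for each of 22180 gene symbols, so a difference of 1 is a doubling.

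Mll5, now named Kmt2e, encodes a chromatin protein with a PHD and a SET domain that is required for normal function of blood stem cells. NAC is a source of cysteine for glutathione and lowers reactive oxygen species, which drive stem cells out of quiescence and damage DNA. BID, the apoptosis protein in the title of the series, carries death signals from caspases to mitochondria. The comparison asks which genotype differences are smaller, alike or larger when the animals have NAC. A gene that differs between genotypes only without NAC has an interaction opposite to its mock difference, and a gene whose difference is the same in both settings has an interaction of 0.

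The following sequences identify members named below. The first are mature microRNAs of the microRNA genes among the members, with the seed (bases 2 to 8) in capitals, from RefSeq on GRCm38.p6. They come from chr12:35194849-35194869 (minus strand), chr4:10845585-10845606 (minus), chr1:74900696-74900717 (minus), and, for miR-142a, chr11:87756867-87756887 and chr11:87756903-87756925 (both plus). For Mir375 only the 5p form is printed, and no other form of it was compared. No seed is shared among the forms printed. The array names the gene and not the mature form, so the signals below are those of the locus.
mmu-miR-680: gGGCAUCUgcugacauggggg
mmu-miR-3471: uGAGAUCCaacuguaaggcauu
mmu-miR-375-5p: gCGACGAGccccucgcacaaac
mmu-miR-142a-5p: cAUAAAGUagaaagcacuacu
mmu-miR-142a-3p: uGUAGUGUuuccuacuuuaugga

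The second are the promoters of Blnk and Ndrg2, shown because they had large interactions of opposite direction and because both hold the core of the antioxidant response element, the motif bound by the redox factor NRF2. The motif searched was TGACNNNGC on both strands, and its match is in capitals. Each window holds 300 bases around the start of the gene, most of them upstream, in the direction of the gene, from RefSeq on GRCm38.p6. Blnk lies at chr19:40994172-40994471 and Ndrg2 at chr14:51913439-51913738, both on the minus strand.
Blnk: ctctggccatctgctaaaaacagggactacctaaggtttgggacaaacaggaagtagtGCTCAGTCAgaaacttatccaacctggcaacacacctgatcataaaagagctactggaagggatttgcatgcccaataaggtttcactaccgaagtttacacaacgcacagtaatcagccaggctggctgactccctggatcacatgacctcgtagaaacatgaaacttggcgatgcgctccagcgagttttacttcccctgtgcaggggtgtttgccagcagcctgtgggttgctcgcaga
Ndrg2: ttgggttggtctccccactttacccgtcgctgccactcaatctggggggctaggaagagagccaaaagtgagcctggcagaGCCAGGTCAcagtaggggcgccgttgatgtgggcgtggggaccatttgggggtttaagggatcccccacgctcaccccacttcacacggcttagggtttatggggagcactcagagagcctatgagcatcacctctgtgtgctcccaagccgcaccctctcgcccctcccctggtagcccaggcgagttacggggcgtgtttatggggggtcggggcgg

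Of the 24 promoters of 19 leading interaction genes with an entry, 5 (20.8%) held this core, those of Blnk, Lce3d, Ndrg2, Rabl2 and Siglece. The same count, 5 of 24, was found for 18 genes chosen for their average genotype difference. Among the 32851 promoters of this length that were searched, 12.4% held it. Promoters on chromosome 18 were left out of every count here. The GATA site AGATAAG was in 1 promoter of the first set (Itm2a) and 1 of the second (Srpk2), against 3.04% of all promoters searched. These are matches of letters and no measure of binding.

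The cells and labels were checked first. Median signals lay between 2.89 and 2.96 on every array. Kit, the stem cell factor receptor that is part of the sort, was at 8.74 to 9.24, far above the median gene level of 3.17, and Sca1 (Ly6a) had no single-gene probe set. Xist was at 10.9 to 11.19 and the highest of the 4 Y-linked genes measured reached 2.51, so the arrays do not differ in sex. Kmt2e itself was at 7.49, 7.39 and 7.68 in wild-type mock, 7.51, 7.38 and 6.93 in mutant mock, 7.37, 7.78 and 7.50 in wild-type NAC and 7.02, 7.33 and 7.01 in mutant NAC. The mutant arrays were all below wild type in NAC and overlapped it in mock, and the interaction of Kmt2e was -0.18 (95% interval -0.71 to 0.34). No source used here places the deletion relative to the probe set, so this signal checks the labels only weakly. The lowest array weights in limma were 0.71 for the first replicate of wild-type mock and 0.54 for that of mutant NAC.

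No gene passed the interaction test. With limma and Benjamini-Hochberg adjustment over all 22180 genes, the share called at an adjusted p under 0.05 was 0%, and the smallest adjusted p was 0.243, for Snord52. At an unadjusted p under 0.05 there were 934 genes (4.21%), where evenly spread p-values would give 1109. Of these, 447 (2.02% of all genes) had a higher and 487 (2.20%) a lower interaction. The median standard error of an interaction was 0.229, against 0.162 for a genotype difference in 1 setting, and the median 95% interval reached 0.496 to either side. The interval lay within 1 of 0 for 18770 genes (84.6%) and within 0.5 of 0 for 3693 genes. For most genes an interaction of 1 was therefore outside the interval, while one of 0.5 was not.

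The genes with the clearest genotype difference over both settings were described next. In a balanced design the estimate of this average difference is uncorrelated with that of the interaction. The p-values of both share the spread of the gene, so a small p for the average also favours a narrow interval of the interaction. limma called 2 genes for it (0.00902%), AI506816 and Selp, and 2014 (9.08%) had an unadjusted p under 0.05. The 20 genes described are the 10 per direction with the smallest p among genes open to naming, which leaves out clone-named genes such as AI506816 and 1190005I06Rik, immunoglobulin and receptor segments, and genes below the median gene level in every group. For each of them, a difference is said to stay if the 95% interval of the interaction lies within the size of the average difference. It is said to shrink or grow if that interval, unadjusted for the number of genes, excludes 0. A difference that stays in this sense need not be of equal size in both settings. By this rule 12 of the 20 genes stayed, 3 shrank, 2 grew and 3 were not resolved. The count that stayed follows in part from choosing small p-values, and it was 7 to 10 when 1 array was left out. Over all 2014 genes, 66 shrank, 69 grew, 20 stayed and 1859 (92.3%) were not resolved. The interaction pointed toward a smaller difference in 930 of the 2014 and toward a larger one in 1072. Altogether 135 of them (6.7%) had an interaction p under 0.05.

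**Figure D1:**
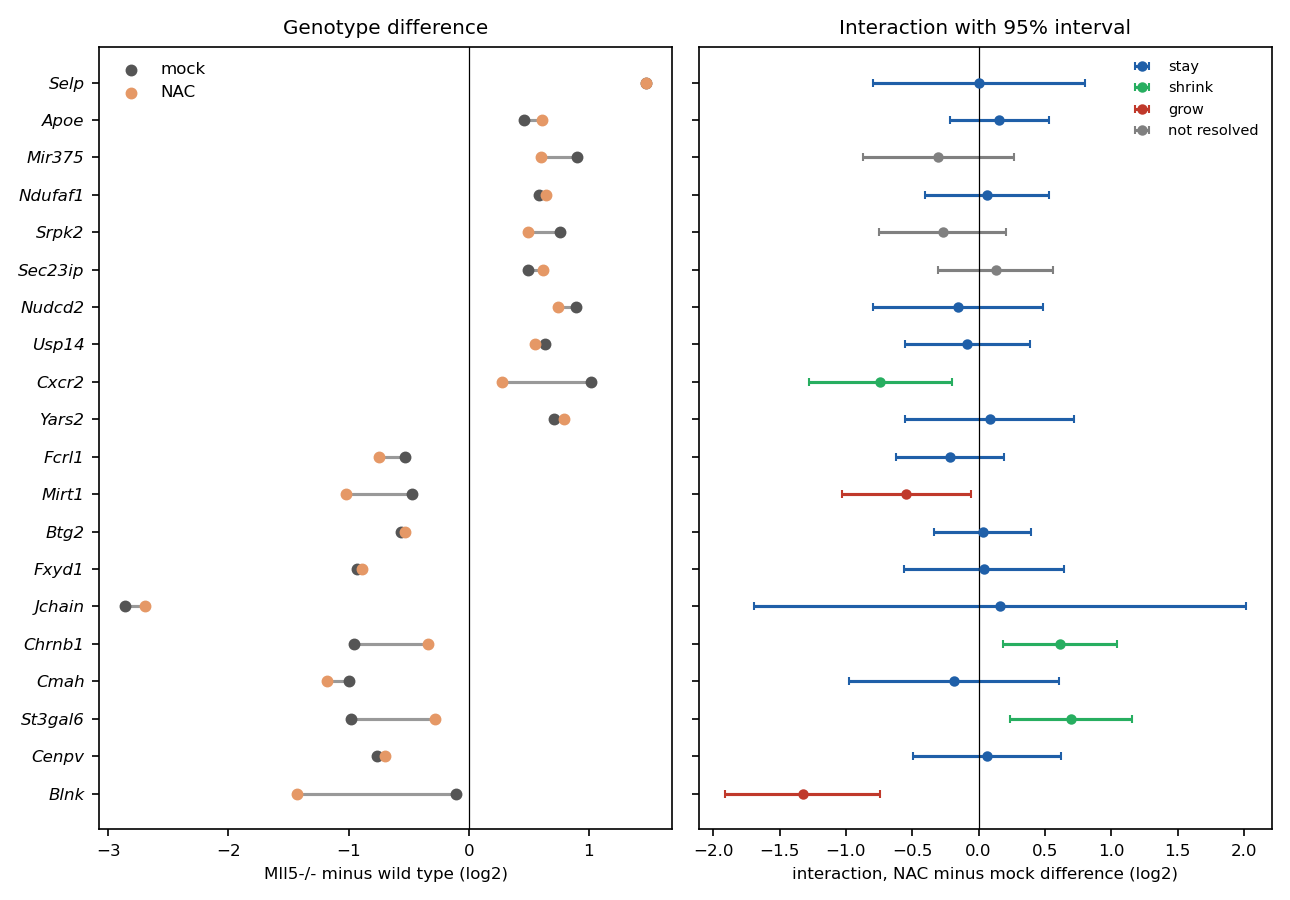
Left, the log2 difference between Mll5-/- and wild type in mock (grey) and NAC (orange) for the 20 named genes with the smallest p for the average genotype difference, 10 in each direction, with clone-named genes, immunoglobulin and receptor segments and genes dim in every group left out. Right, the interaction with its unadjusted 95% interval, coloured by class. The 2 values of Selp coincide at 1.48, and the 5 intervals that exclude 0 are those of Cxcr2, Mirt1, Chrnb1, St3gal6 and Blnk.

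Selp had the smallest p among the 20 genes, and its difference stayed. It encodes P-selectin, the adhesion molecule of platelets, megakaryocytes and activated endothelium. Its signal was 4.88, 4.66 and 4.81 in wild-type mock and 6.51, 6.49 and 5.78 in mutant mock. Under NAC it was 5.06, 4.71 and 5.31 in wild type and 5.90, 6.94 and 6.67 in the mutant. The mutant arrays lay above the wild-type arrays in both settings, by 1.48 in each, and the interaction was 0.00 (95% interval -0.80 to 0.80). Over both settings Selp was higher by 1.48 (SE 0.18, limma adjusted p = 0.0269). This call was lost in 9 of the 12 fits that left out 1 array: each wild-type mock array, mutant mock replicates 1 and 2, wild-type NAC replicates 1 and 2 and mutant NAC replicates 2 and 3. It was lost with the replicate block and with all probe sets too. The 17 measured megakaryocyte genes had a mean signal of 4.01 to 4.25 in wild-type mock, 4.29 to 4.61 in mutant mock, 4.09 to 4.17 in wild-type NAC and 4.50 to 4.57 in mutant NAC. Selp is itself among these 17, so the list mean holds its values too. The part of the other members in the Selp signal was not tested. In these sorted pools, more cells of a type cannot be told apart from more RNA per cell.

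Btg2, an inhibitor of proliferation that p53 induces, stayed lower in the mutant. Its signal was 9.42, 9.25 and 9.56 in wild-type mock against 8.90, 8.85 and 8.79 in mutant mock, and 9.04, 9.07 and 8.87 in wild-type NAC against 8.41, 8.42 and 8.55 in mutant NAC. The genotypes did not overlap in either setting, at -0.56 and -0.53. The interaction interval of Btg2, -0.33 to 0.39, was narrower than that of Selp. Under NAC the signal was lower by about as much in each genotype, at -0.42 in wild type and -0.39 in the mutant. Fxyd1, a regulator of the sodium pump, was at 3.93 to 4.30 in wild-type mock and 3.24, 3.25 and 2.96 in mutant mock. With NAC the values were 3.71, 3.63 and 4.41 in wild type and 3.15, 3.12 and 2.82 in the mutant. Its differences were -0.93 and -0.89, again without overlap. The mutant means, 3.15 in mock and 3.03 in NAC, lay below the median gene level of 3.17. Fxyd1 was thus open to naming only through its wild-type means, the high values behind its difference.

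Jchain, which joins the subunits of secreted IgM and IgA, combined a large genotype difference with a large value under NAC. It was at 5.68, 5.14 and 5.73 in wild-type mock and 2.36, 2.64 and 2.97 in mutant mock. With NAC they were 7.50, 8.21 and 6.39 in wild type and 6.13, 4.84 and 3.04 in the mutant. Both genotypes were higher under NAC, by 1.85 and 2.01, and the genotype difference was -2.86 in mock and -2.70 in NAC. The mutant NAC arrays were widely spread, and the interval of the interaction ran from -1.69 to 2.02. The mutant mock mean, 2.66, lay below the median gene level of 3.17. The 12 plasma cell and antibody secretion genes, Jchain among them, had a mean signal of 4.97 to 5.22 in wild-type mock, 4.65 to 4.79 in mutant mock, 5.22 to 5.57 in wild-type NAC and 4.87 to 5.24 in mutant NAC. Their part in the Jchain signal was not tested.

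Other differences were also placed as stayed. Ndufaf1, an assembly factor of respiratory complex I, was higher in the mutant by 0.58 and 0.65 in mock and NAC. Usp14, a deubiquitinase of the proteasome, was higher by 0.64 and 0.55, and Nudcd2, a NudC domain protein, by 0.90 and 0.74. Yars2, the mitochondrial tyrosyl-tRNA synthetase, was higher by 0.71 and 0.79, and Apoe, the lipoprotein component, by 0.46 and 0.61. Lower in the mutant were Cmah, which makes a sialic acid, at -0.99 and -1.18, Cenpv, a centromere protein, at -0.76 and -0.70, and Fcrl1, a B cell surface receptor, at -0.53 and -0.75. Under the 20 alternatives Apoe kept this class in 5, Fcrl1 in 7, and Nudcd2 and Yars2 in 9 each. The genes that could not be placed were Mir375 at 0.90 and 0.60, Srpk2, a kinase of splicing factors, at 0.76 and 0.49, and Sec23ip, a protein of endoplasmic reticulum exit sites, at 0.49 and 0.62. The genotypes did not overlap in either setting, and differed in the same direction, in 15 of the 20 genes, against 1.34% of all genes. That count follows from how the 20 were chosen.

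AI506816 was named outside the rule, after its values were seen, because it is the other gene called for the average difference. Its function is not known here. It was at 6.58, 6.61 and 5.87 in wild-type mock, 4.28, 3.89 and 3.29 in mutant mock, 6.32, 6.25 and 6.40 in wild-type NAC and 4.38, 4.81 and 4.37 in mutant NAC. All mutant arrays were below all wild-type arrays. The difference was -2.53 in mock and -1.80 in NAC, with an interaction of 0.73 (95% interval -0.02 to 1.48, limma adjusted p = 0.999), which the rule above would place as stayed.

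Cxcr2 was a difference that shrank. It encodes a chemokine receptor of neutrophils that also marks some progenitors. Its signal was 4.78, 4.31 and 4.37 in wild-type mock and 5.46, 5.70 and 5.35 in mutant mock, then 5.09, 4.92 and 4.47 in wild-type NAC and 5.07, 5.19 and 5.05 in mutant NAC. The mutant was above wild type on every array in mock, and the genotypes overlapped in NAC. The difference went from 1.02 to 0.28, and the interaction was -0.74 (95% interval -1.28 to -0.20, limma adjusted p = 0.999). Under NAC wild type was 0.34 higher and the mutant lower, at -0.40. The 19 mature neutrophil granule genes, Cxcr2 included, had mean signals of 4.10 to 4.45, 3.74 to 4.18, 4.28 to 4.43 and 4.12 to 4.29 in wild-type mock, mutant mock, wild-type NAC and mutant NAC. Cxcr2 was higher in mutant mock while this list was not, and the list's part in the result was not tested.

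In the other genes that shrank, the wild-type signal differed more between mock and NAC than the mutant signal. Chrnb1, a subunit of the muscle acetylcholine receptor, was at 5.10, 5.11 and 5.20 in wild-type mock and 4.55, 4.51 and 4.44 in wild-type NAC. In the mutant it was at 4.02, 4.08 and 4.45 in mock and 3.93, 4.27 and 4.28 in NAC. The mutant stayed below wild type in both settings, but the difference went from -0.95 to -0.34, with an interaction of 0.61 (95% interval 0.18 to 1.04, limma adjusted p = 0.999). St3gal6, a sialyltransferase, was at 3.27, 3.42 and 3.31 in wild-type mock, 2.36, 2.47 and 2.24 in mutant mock, 2.76, 2.58 and 3.02 in wild-type NAC and 2.23, 2.69 and 2.59 in mutant NAC. The gap of -0.98 became -0.28 with overlap, and the interaction was 0.69 (95% interval 0.23 to 1.15). St3gal6 was a dim gene, with a mean of 2.75. Only its wild-type mock mean, the value behind the larger mock difference, exceeded the median gene level and made it open to naming, so its class is no support for differences that shrink.

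Blnk was the clearest difference that grew. It encodes the adaptor that passes the signal of the pre-B and B cell receptor to calcium and transcription, and it comes on when progenitors enter the B lineage. Its signal was 4.22, 4.42 and 4.80 in wild-type mock and 4.31, 4.30 and 4.52 in mutant mock, which overlapped. Under NAC it was 5.41, 4.74 and 5.29 in wild type and 3.51, 3.82 and 3.82 in the mutant, far apart. The difference went from -0.10 to -1.43 and the interaction was -1.33 (95% interval -1.91 to -0.74, limma adjusted p = 0.744). Under NAC wild type was higher by 0.67 and the mutant lower, at -0.66. The 14 measured B cell genes had a mean signal of 3.32 to 3.60 in wild-type mock, 3.17 to 3.34 in mutant mock, 3.47 to 3.65 in wild-type NAC and 3.04 to 3.35 in mutant NAC. Blnk is itself among these 14, so the list mean holds its values too. Of the 14, 6 were at or below the median gene level, and the list's part in the Blnk result was not tested. Mirt1, a noncoding RNA named for its rise after myocardial infarction, was at 3.79, 3.67 and 3.65 in wild-type mock and 3.22, 3.23 and 3.24 in mutant mock. Under NAC it was at 4.26, 4.08 and 3.90 in wild type and 3.42, 3.01 and 2.75 in the mutant. Its difference went from -0.47 to -1.02 without overlap in either setting, and its interaction was -0.55 (95% interval -1.03 to -0.06).

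**Figure D2:**
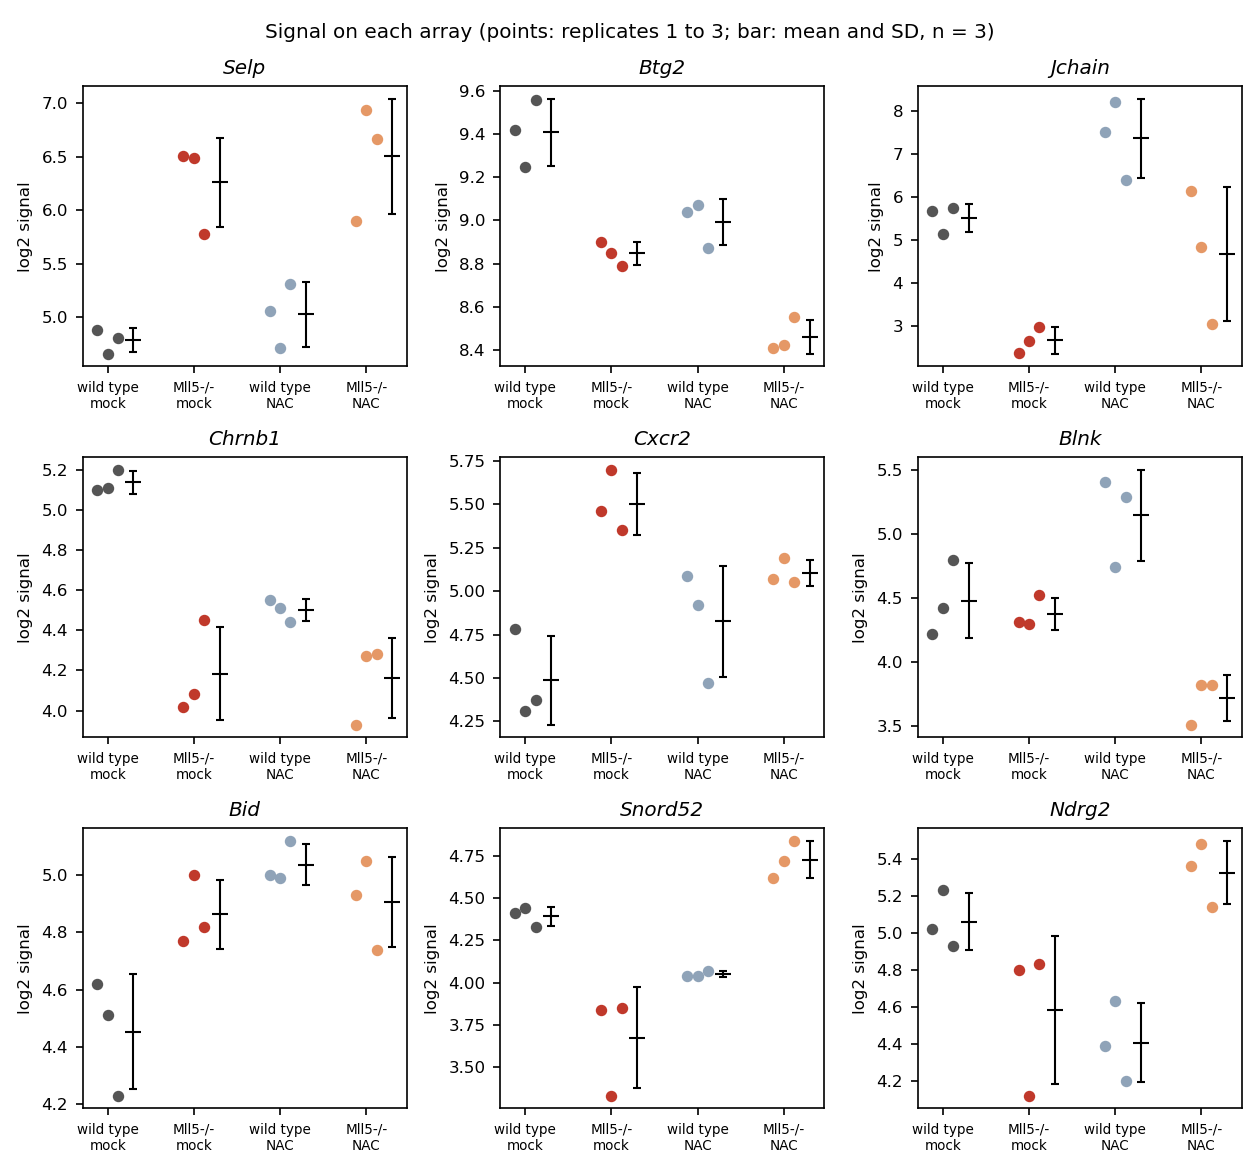
Log2 signal of 9 genes on each array in the 4 groups, with points for replicates 1 to 3 and a bar for the mean and SD (n = 3). Selp, Btg2 and Jchain have a similar mean genotype gap in mock and NAC, and Chrnb1, Cxcr2 and Bid a smaller one in NAC. Blnk separates only in NAC, and Snord52 and Ndrg2 turn from lower to higher in the mutant.

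The leading interaction genes, the 12 with the smallest p per direction, were described separately. None passed the adjusted threshold, they were chosen by the interaction itself, and their values are a description. In 23 of the 24 the genotype difference changed sign between mock and NAC, as it did in 9609 of all 22180 genes. In 10 the genotypes did not overlap in either setting and lay in opposite order, against 0.410% of all genes. In 23 of the 24 the wild-type signal moved under NAC against the direction of the interaction, and in 21 the mutant signal moved along it. All these counts follow from how the 24 were chosen. Of the 24, only Blnk is in a gene list described below.

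Snord52, a small nucleolar RNA of the class that guides ribose methylation, had the smallest p. It was at 4.41, 4.44 and 4.33 in wild-type mock, 3.84, 3.33 and 3.85 in mutant mock, 4.04, 4.04 and 4.07 in wild-type NAC and 4.62, 4.72 and 4.84 in mutant NAC. The mutant arrays were all below wild type in mock and all above in NAC. The difference went from -0.72 to 0.68, with an interaction of 1.40 (SE 0.20, limma adjusted p = 0.243). Ndrg2, a cytoplasmic protein induced in several stresses, had the same pattern. It was at 5.02, 5.23 and 4.93 in wild-type mock, 4.80, 4.12 and 4.83 in mutant mock, 4.39, 4.63 and 4.20 in wild-type NAC and 5.36, 5.48 and 5.14 in mutant NAC. Its difference went from -0.48 to 0.92 (interaction 1.40, SE 0.27, limma adjusted p = 0.744).

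Several of the genes with a positive interaction were lower under NAC mainly in wild type. Zfp972, a zinc finger gene, was at 5.21, 4.89 and 4.66 in wild-type mock and 3.27, 3.17 and 2.53 in wild-type NAC, while the mutant was at 3.49, 3.15 and 3.91 in mock and 3.71, 3.56 and 2.84 in NAC. Only the wild-type mock arrays stood apart (interaction 1.78). Cd59a, the membrane inhibitor of complement lysis, was at 4.63, 4.45 and 4.67 in wild-type mock and 2.95, 3.60 and 2.74 in wild-type NAC, against 3.71, 4.12 and 3.92 and then 4.85, 3.60 and 4.34 in the mutant (interaction 1.83). Gprc5b, an orphan G protein-coupled receptor, was at 6.59, 7.07 and 6.96 in wild-type mock and 5.64, 5.84 and 5.57 in wild-type NAC. In the mutant it was at 6.13, 6.28 and 6.40 and then 5.88, 6.06 and 6.19 (interaction 0.96).

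The other genes with a positive interaction ranged from 0.94 to 1.37. They were Mir680-3 (1.37), Lce3d, a cornified envelope gene (1.22), Tlcd1, a membrane lipid regulator (1.19), Zfp429 (1.14), Coq10a, a coenzyme Q binding protein (1.09), Rabl2, a small GTPase of cilia (0.95), and Itm2a, a membrane protein of developing lymphocytes (0.94). Over the alternative fits the interaction of Tlcd1 went as low as 0.48, against 1.02 at the lowest on leaving out 1 array. Mir680-3 belongs to a microRNA with several copies, so its signal may not come from this locus alone. It was open to naming only through its wild-type mock and mutant NAC means, the high values behind its interaction. Lce3d, at 2.89, lay below the median gene level and was open to naming only through its mutant NAC mean, the high value behind its interaction.

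Among the genes with a negative interaction, Necap2, a clathrin coat accessory protein, had the mutant above wild type in mock and below it in NAC. It was at 6.01, 6.09 and 5.81 in wild-type mock, 6.51, 6.60 and 6.22 in mutant mock, 6.67, 6.56 and 6.85 in wild-type NAC and 6.34, 6.18 and 6.12 in mutant NAC. The genotypes were apart in both settings (interaction -0.95). Siglece, an inhibitory receptor of myeloid cells for sialic acid, was at 3.04, 2.76 and 3.07 in wild-type mock and 4.29, 3.79 and 4.34 in wild-type NAC, and in the mutant at 3.59, 3.41 and 3.54 and then 3.26, 3.48 and 3.87. The mutant signal was almost the same in both settings (interaction -1.16). Htr2a, a serotonin receptor, was the reverse case, at 5.80, 5.45 and 5.68 in mutant mock and at 4.16 to 5.13 in the 9 other arrays (interaction -1.13).

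The remaining negative interactions were those of Mir3471-1 (-1.22), Zfp513 (-1.18), Clic3, an intracellular chloride channel (-1.16), Otud7b, a deubiquitinase that restrains NF-kB (-0.94), Glyctk, glycerate kinase (-0.94), Rhoc, a small GTPase of the cytoskeleton (-0.84), Slc30a4, a zinc transporter (-0.80), and Trmt11, a tRNA methyltransferase subunit (-0.75). Mir3471-1, with a mean of 2.94, was likewise dim and open to naming only through its wild-type NAC mean, the high value behind its interaction. Rhoc was open to naming only through its mutant mock and wild-type NAC means, the high values behind its own interaction. Otud7b had mutant arrays of 4.57, 4.53 and 4.49 over wild-type arrays of 4.16, 4.21 and 4.30 in mock. In NAC the order was turned, with 4.16, 4.10 and 3.63 in the mutant under 4.65, 4.45 and 4.69 in wild type.

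**Figure D3:**
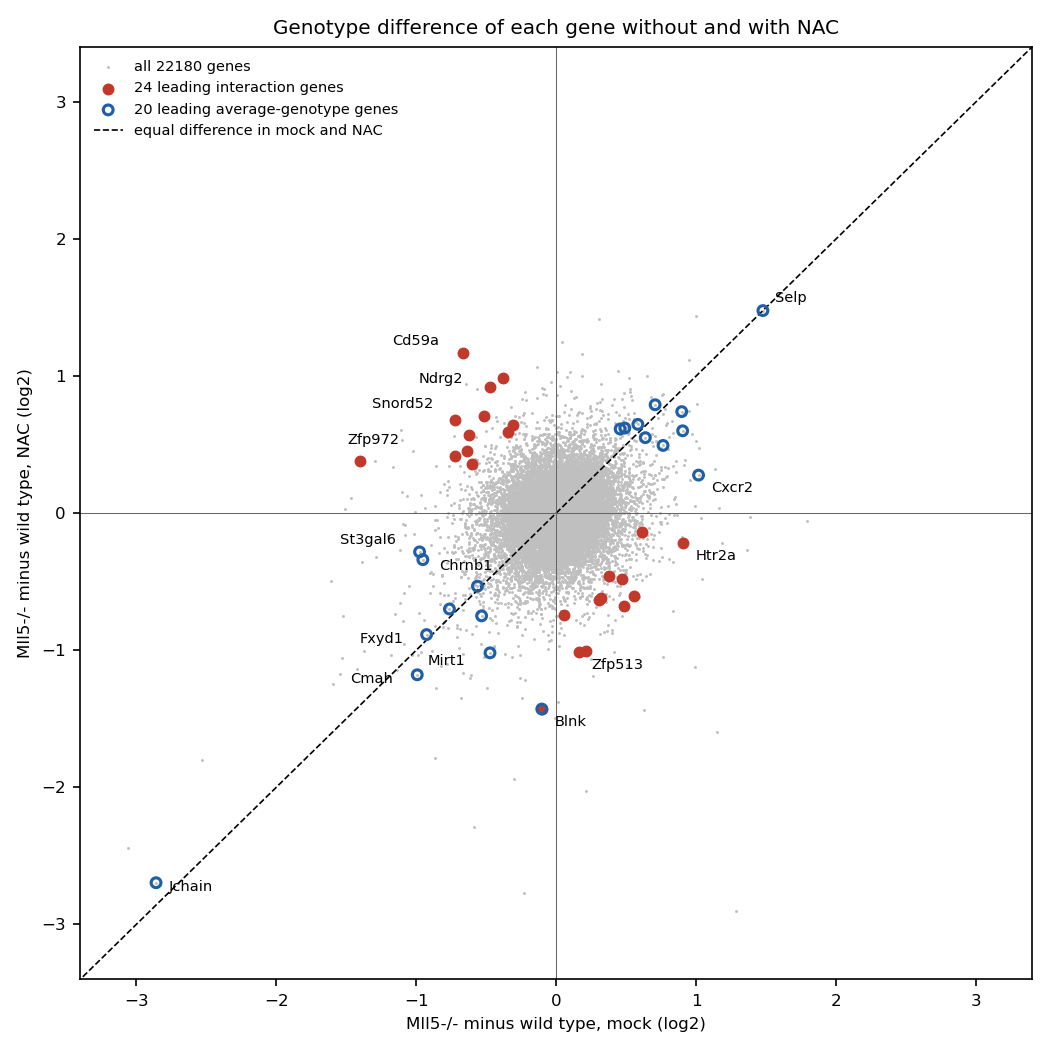
Each grey point is 1 of 22180 genes, with its log2 genotype difference (Mll5-/- minus wild type) in mock on the horizontal and in NAC on the vertical axis. Red points are the 24 leading interaction genes, which lie in the upper left and lower right apart from Blnk, and blue rings are the 20 genes with the clearest average difference, which lie near the dashed line of equal differences except for Blnk and, less far, Cxcr2, Chrnb1, St3gal6 and Mirt1.

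A pair of genes outside the naming rule was picked out with their values in view. 1190005I06Rik, a clone-named gene, was at 2.72, 2.78 and 2.80 in wild-type mock and 4.05, 4.0 and 4.40 in mutant mock. With NAC it read 3.24, 3.23 and 2.69 in wild type and 2.97, 2.97 and 3.13 in the mutant. Its difference of 1.38 in mock was -0.03 in NAC, and its interaction was -1.41 (SE 0.23, limma adjusted p = 0.359). Without wild-type NAC replicate 3, this gene had an interaction of -1.60 (adjusted p = 0.0372), and the immunoglobulin segment Igkv6-23 one of -3.02 (adjusted p = 0.00821, against 0.999 with all arrays). These 2 were the only interaction calls in any fit. Mir142, the blood cell microRNA printed above, was at 6.05, 6.92 and 6.16 in wild-type mock, 6.28, 7.07 and 6.57 in mutant mock and 6.49, 7.10 and 6.31 in wild-type NAC. It was at 5.55, 5.21 and 5.57 in mutant NAC, below the other 9 arrays, and had an interaction of -1.45 (95% interval -2.27 to -0.64, limma adjusted p = 0.997).

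The genotype differences found in 1 setting were then read in the other, which uses other arrays. In mock, 1471 genes (6.63%) had an unadjusted p under 0.05. Their median size was 0.44 in mock and 0.09 in the same direction in NAC, and 963 (65.5%) kept their sign. Read from the other side, 1590 genes (7.17%) had a p under 0.05 in NAC, with a median size of 0.45 there and 0.10 in mock, and 1071 (67.4%) had the same sign. Over all genes 55.2% had the same sign. The drop was thus as large from NAC to mock as from mock to NAC, and genes chosen for a small p in 1 setting have on average a smaller difference in the other for that reason alone. Among the named genes, Clec2i, a lectin ligand of a natural killer receptor, was at 5.39, 5.40 and 5.54 in wild-type mock and 6.55, 6.25 and 7.02 in mutant mock. Under NAC it overlapped, at 6.04, 6.13 and 6.48 in wild type and 6.58, 5.90 and 6.27 in the mutant, so a difference of 1.16 was 0.03. Cox6b2, a cytochrome oxidase subunit, went from -0.81 to -0.35, and Mrps22, of the mitochondrial ribosome, from 0.28 to 0.65.

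Bid had an interaction of -0.54 (95% interval -0.95 to -0.13, unadjusted p = 0.0145, limma adjusted p = 0.999). Its signal was 4.62, 4.51 and 4.23 in wild-type mock and 4.77, 5.0 and 4.82 in mutant mock, where all mutant arrays were above wild type. With NAC it read 5.0, 4.99 and 5.12 in wild type and 4.93, 5.05 and 4.74 in the mutant, which overlapped. The mutant mean was 4.86 in mock and 4.91 in NAC, and the wild-type mean was 4.45 and 5.04. The genotype difference of 0.41 without NAC and -0.13 with it thus came with a higher wild-type signal under NAC and a mutant signal that differed by 0.04. In the alternative fits the interaction lay between -0.64 and -0.43.

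The other death-promoting genes had smaller values. Of the 10 measured BH3-only genes, Bak1 and Bok, 8 had a negative interaction, 1 (Bid) with an unadjusted p under 0.05, and the list median was -0.12. Bok went from 0.31 to -0.07 and Bak1, an effector that opens the outer mitochondrial membrane, from 0.12 to -0.23. Bcl2l11, which encodes BIM, was lower in the mutant by the same amount in both, at -0.52 and -0.54. The 16 survival BCL2 members and caspases had a median of 0.13 in mock and 0.03 in NAC, with 10 negative interactions. Their largest were Bcl2a1a (-0.57), a dim gene, Casp2, an initiator caspase (-0.31), and Bcl2l1, which encodes the survival protein BCL-XL (0.27).

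Over the 33 gene lists described, 651 distinct genes were measured. Of these, 9 (1.38%) had a higher and 15 (2.3%) a lower interaction at an unadjusted p under 0.05, near the 2.02% and 2.20% of all genes, and 0 passed limma's adjusted threshold. The list medians of the interaction ran from -0.16 to 0.22, where the median of all genes was 0.

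**Figure D4:**
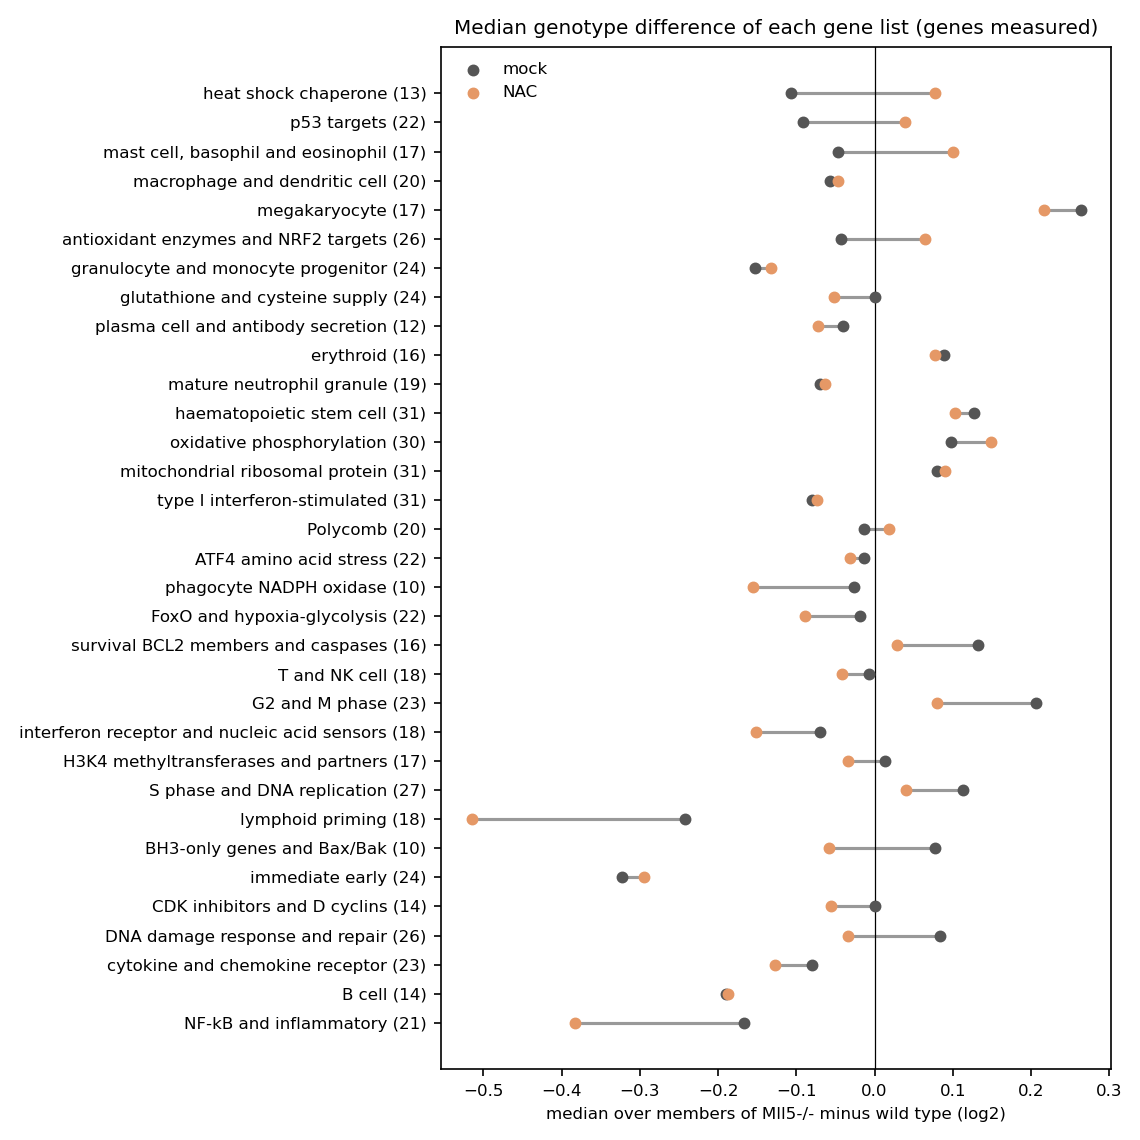
Median log2 genotype difference (Mll5-/- minus wild type) of the measured members of 33 gene lists in mock (grey) and NAC (orange), ordered by median interaction, with the number of measured genes in brackets. Lymphoid priming and NF-kB genes lie lowest in NAC, at -0.52 and -0.38, megakaryocyte genes lie highest in both settings, and heat shock genes go from -0.11 to 0.08.

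Lymphoid priming genes, which progenitors express before they choose the lymphoid lineage, had a median genotype difference of -0.24 in mock and -0.52 in NAC. Of 18, 14 were negative in mock and 16 in NAC, and 7 and 10 had an unadjusted p under 0.05 in either direction, against 6.63% and 7.17% of all genes. In 15 of the 18 there was a negative interaction, 1 of them, Blnk, at an unadjusted p under 0.05. Dntt, the polymerase that adds bases at antigen receptor joins, was at -1.18 and -1.04, Flt3, a cytokine receptor, at -0.60 and -0.88, and Il7r, the interleukin-7 receptor, at -0.89 and -1.01. Ighm, the heavy chain of IgM, was at -1.55 and -1.17, and Rag2, a recombinase subunit, at -1.15 and -0.74, so these 2 had positive interactions. The list median was -0.11 and became 0.10 when both arrays with the lowest weights were left out. The mean over the list was 5.81 to 6.33 in wild-type mock, 5.43 to 5.89 in mutant mock, 6.00 to 6.24 in wild-type NAC and 5.36 to 5.67 in mutant NAC. The genotypes thus overlapped in mock and not in NAC.

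NF-kB and inflammatory genes had the lowest median interaction, -0.16, with 15 of 21 negative and 1 (Il1b) at an unadjusted p under 0.05. Their median was -0.17 in mock and -0.38 in NAC. Nfkbie, an inhibitor that NF-kB induces, was at 5.34, 5.21 and 6.11 in wild-type mock, 5.62, 5.39 and 5.55 in mutant mock, 5.60, 6.13 and 5.59 in wild-type NAC and 5.33, 5.26 and 4.65 in mutant NAC. It overlapped in mock and was apart in NAC, with an interaction of -0.66. Nfkb2, Bcl3 and Ccl5 had interactions of -0.38, -0.32 and -0.45, while Tnf was lower in the mutant alike in both, at -0.65 and -0.63. The list mean was 5.23 to 5.56, 4.97 to 5.23, 5.28 to 5.38 and 4.87 to 5.03 in wild-type mock, mutant mock, wild-type NAC and mutant NAC. Immediate early genes, which cells switch on within minutes of a signal, had median genotype differences of -0.32 and -0.30. Of 24, 6 had an unadjusted p under 0.05 in mock and 9 in NAC, against 6.63% and 7.17% of all genes. Egr1 was at -0.69 and -0.99 and Nr4a3 at -0.65 and -0.86. Klf4, a factor of quiescence, was at -0.70 and -0.18.

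Heat shock chaperones had the highest median interaction, 0.22, with 12 of 13 positive and none at an unadjusted p under 0.05. Hspa1b, the inducible HSP70, was at 5.69, 4.77 and 4.34 in wild-type mock, 5.32, 4.36 and 2.55 in mutant mock, 3.80, 4.17 and 4.51 in wild-type NAC and 4.81, 4.05 and 4.66 in mutant NAC. The groups overlapped in both settings, and its interaction of 1.20 had an interval from -0.45 to 2.86. Hsph1 had 0.47, Bag3, a co-chaperone, 0.34, and the constitutive Hspa8 and Hsp90aa1 0.04 each. Only Hspd1, of mitochondria, was negative, at -0.03.

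Among p53 targets, 17 of 22 had a positive interaction, and the median was 0.16. Ei24 (0.41) was the 1 with an unadjusted p under 0.05. Sesn2, Sesn1 and Zmat3 had 0.40, 0.30 and 0.29, whereas Cdkn1a, which encodes the cell cycle inhibitor p21, had -0.25. DNA damage and repair genes leaned the other way, with 18 of 26 negative and a median of -0.13, which was 0.00 without wild-type mock replicate 1. Brca2, which acts in the repair of DNA breaks by homologous recombination, was at 5.94, 5.91 and 6.20 in wild-type mock, 6.44, 6.48 and 6.82 in mutant mock, 6.64, 6.75 and 6.41 in wild-type NAC and 6.55, 6.46 and 6.46 in mutant NAC. It was higher on all mutant arrays in mock and overlapped in NAC (interaction -0.67, limma adjusted p = 0.999). As for Bid, the wild-type mock arrays were the low ones. Brca1 had an interaction of -0.57 and overlapped in both settings.

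Cell cycle genes had higher median genotype differences in mock than in NAC. G2 and M phase genes went from a median of 0.21 to 0.08, with 16 of 23 interactions negative, and S phase genes from 0.11 to 0.04, with 19 of 27 negative. Plk1, the mitotic kinase, went from 0.21 to -0.15 and Gins1, of the replication helicase, from 0.39 to 0.04. In both lists only Cdc45, another part of the helicase, had an unadjusted p under 0.05, with a positive interaction of 0.42. Cdkn2c, an inhibitor of CDK4 and CDK6, was at 5.58, 5.98 and 4.97 in wild-type mock, 4.83, 4.96 and 4.90 in mutant mock, 5.16, 5.15 and 4.96 in wild-type NAC and 5.39, 5.55 and 5.31 in mutant NAC. It turned from lower to higher in the mutant without overlap in either setting (interaction 0.94, limma adjusted p = 0.999). In mock the margin was narrow, with the lowest wild-type array at 4.97 and the highest mutant array at 4.96. Cdk6 itself went from 0.30 to -0.14. Among Polycomb genes Ezh1, a histone H3 methyltransferase, went from -0.62 to 0.27 and its partner Phf1 from -0.62 to -0.02.

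Genes of the redox system, which NAC feeds, had small median interactions. The 26 antioxidant enzymes and NRF2 targets had a median of 0.08, with 17 positive and 0 at an unadjusted p under 0.05. Nqo1, a quinone reductase and classic NRF2 target, went from -0.03 to 0.68, Gpx7 from -0.26 to 0.49 and Prdx4, a peroxiredoxin of the endoplasmic reticulum, from 0.08 to 0.52. Sod1 and Gpx1 had -0.01 and -0.04. In glutathione and cysteine supply the median was 0.02, with either sign on leaving out an array. Gclc and Gclm, the subunits of the rate-limiting enzyme, had interactions of 0.05 and -0.02, and Slc7a11, the cystine transporter, 0.17. Ggt5, a glutathione hydrolase, and Gsto1, a transferase, had -0.91 and -0.62, the 2 genes of 24 at an unadjusted p under 0.05. Acy1, an aminoacylase that can remove the acetyl group from NAC, went from 0.35 to -0.22 with overlap in both settings. The phagocyte NADPH oxidase genes had 8 of 10 negative interactions and a median of -0.07, or 0.01 without mutant NAC replicate 1. Cybb, its catalytic subunit, was lower in the mutant alike in both, at -0.96 and -1.01, and Ncf1 went from 0.11 to -0.35.

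Interferon-stimulated genes had a median interaction of 0.00, with 15 positive and 16 negative. Cmpk2 (-0.69) was the 1 of 31 at an unadjusted p under 0.05. Interferon receptor and nucleic acid sensor genes had 14 of 18 negative, with Ticam1, the adaptor of TLR3, at -0.65 and Adar, an RNA-editing enzyme, at -0.41. Tlr7 kept its lower value in the mutant, at -0.99 and -1.03. Oxidative phosphorylation genes were at a median of 0.10 in mock and 0.15 in NAC, and mitochondrial ribosomal proteins at 0.08 and 0.09. Among both lists only Mrpl15 (-0.45) had an unadjusted p under 0.05.

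Among stem cell and myeloid lists, the 31 stem cell genes had medians of 0.13 and 0.10 and 0 interactions at an unadjusted p under 0.05. The 17 megakaryocyte genes were at 0.26 and 0.22, with Itga2b, an integrin subunit of platelets, at 0.42 and 0.50. Pf4, a platelet chemokine, was at 6.53, 5.91 and 5.40 in wild-type mock, 6.65, 6.83 and 5.27 in mutant mock, 5.79, 6.13 and 5.95 in wild-type NAC and 7.91, 7.42 and 6.78 in mutant NAC. It overlapped in mock and was apart in NAC, yet its interaction of 1.11 had an interval from -0.09 to 2.31. Granulocyte and monocyte progenitor genes were at -0.15 and -0.13. Cd33, a myeloid receptor for sialic acid, went from -0.25 to -1.35 with an interaction of -1.10, and its mutant NAC arrays of 4.19, 5.46 and 5.62 lay below wild type at 6.39, 6.24 and 6.68. Kit had an interaction of -0.16 (95% interval -0.50 to 0.18).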

How the data were processed

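Biotin-labelled total RNA of sorted LSK cells was measured on 12 arrays. The authors deposited log2 signals, and the submitters' processing notes name RMA and Affymetrix Power Tools, without versions. The log base was taken from the range of values. RMA includes quantile normalization, so a shift common to all genes would be removed. Of 41345 probe sets, 23521 had 1 gene symbol and 23328 of these matched the GRCm38.p6 table. A symbol with several probe sets was represented by its brightest, which left 22180 genes. A mean per group was fitted with limma 3.58.1 in R 4.3.3 (lmFit, eBayes), with Benjamini-Hochberg adjustment over all genes, and the fit was tested on simulated data. Precision is limited by 3 arrays per group. Named genes were Kmt2e, Bid and Kit, the 12 smallest p per direction for the interaction, 10 for the average difference and 5 in mock and in NAC, and up to 3 members per list by interaction size. Clone-named genes, immunoglobulin and receptor segments and genes below the median gene level in every group were left out of naming outside the lists. Other list members serve as examples. The members and lists were chosen with earlier results of these data known. Alternatives were a level filter, array weights, centring, fresh quantiles, trend and robust variance, probe set means, all probe sets, a replicate block, an adjusted p under 0.10 and leaving out arrays. Figures used matplotlib 3.10.9.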

Additional observations from a re-analysis of the deposited data

How the results depend on the processing

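The interaction count was 0 in all 22 alternatives except without wild-type NAC replicate 3, where it was 2, so its range on leaving out 1 array was 0 to 2. At an unadjusted p under 0.05 the count was 934 with all arrays and 944 with the replicate number as a block. The deviations of same-numbered arrays correlated at -0.0572 to 0.0564 (median 0.0111), and those of different-numbered arrays at -0.0783 to 0.0715 (median -0.00546). Such correlations over all genes cannot exclude a pairing that acts on some of them. With all 41345 probe sets the smallest adjusted p was 0.0954. The count of average genotype calls, 2 with all arrays, was 4 with array weights, 1 with the replicate block, 12 at an adjusted p under 0.10, 4 without both arrays of lowest weight (chosen after seeing the data) and 1 to 7 on leaving out 1 array, with 7 without Mll5-/- mock replicate 3 and 5 without Mll5-/- NAC replicate 1. AI506816 was called in 21 of 21 fits by gene, Selp in 11. With all 41345 probe sets, the average genotype call with the smallest limma adjusted p (0.000125) was a probe set outside those chosen for the genes. Its signal was higher in the mutant by 3.29 and is not described here. Of the 20 average genes, 1 grew with trend and robust variance, and on leaving out 1 array 1 to 2 grew and 7 to 10 stayed; the cause was not tested. The class was the same in all 20 alternatives for Selp, Btg2, Fxyd1, Jchain, Cxcr2, Chrnb1 and Blnk, in 19 of 19 for St3gal6, in 13 for Mirt1, and in 5 to 9 of 20 for Apoe, Fcrl1, Nudcd2 and Yars2. Single-gene interactions kept their direction and side of the threshold in 597 of 598 fits. Most of these genes were chosen for their interaction in these same arrays, and none was called with all arrays. The count is therefore no support for them. Of 660 list medians, 631 moved by no more than the standard error of an interaction of the list mean. Some of these changed sign, as for lymphoid priming. Centring on the median turned the Polycomb, mitochondrial ribosome, oxidative phosphorylation and interferon-stimulated medians, all within 0.04 of 0.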
